A study of Rattus norvegicus with 13 samples.

Results

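Brains rich in the signal of Ogn (osteoglycin) were compared with brains poor in it. Ogn encodes a small leucine-rich proteoglycan of the extracellular matrix that meningeal fibroblasts are known to express. The sides were chosen by a measured value: the 7 of 13 arrays with an Ogn log2 signal above 8.5 formed the Ogn-rich side, and the 6 arrays below 8.5 formed the Ogn-poor side. Because a readout selected the sides, each difference between them is a description of how other genes were arranged along Ogn and is no test of a condition. The comparisons with maternal diet are tests.

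Each array carried RNA from the brain, without the cerebellum, of a male rat of the Fischer F344 strain, an inbred line, at 15 months of age. The mothers had eaten a control diet (7 arrays) or a diet high in fructose (6 arrays) from day 1 of gestation through lactation, and all offspring were moved to chow at weaning on day 20. Thus both diet groups shared the strain, sex, age and the chow eaten after weaning, and the diet of the mother is what the labels give as the difference. The labels name neither litters nor single animals, and they do not say whether the meninges or the choroid plexus were left on the brain.

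The brain is wrapped in the leptomeninges, made up of the pia on its surface and the arachnoid above it. Their fibroblasts lay down collagens, proteoglycans and basement membrane, carry transporters for solutes of the cerebrospinal fluid, and secrete retinoic acid, insulin-like growth factor 2 and bone morphogenetic proteins. Endothelial and mural cells form the vessels, and the choroid plexus is a separate epithelium in the ventricles that makes cerebrospinal fluid and much of the brain's transthyretin (Ttr). In RNA of a whole brain, fewer cells of a type and less RNA per cell cannot be told apart.

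Signals are log2 values, on which a difference of 1 is a 2-fold difference. Array medians ran from 7.99 to 8.07 and interquartile ranges from 2.15 to 2.5. The narrowest ranges belonged to control replicates 1 and 2, both on the Ogn-poor side. For the fibroblast, proteoglycan, solute carrier, collagen, vessel and choroid plexus lists, counts and medians are also given without these arrays. Some values of other lists are given in this way too, as are single genes above 0.1 in size that turned sign without them. The 15632 probe sets with a gene, leaving Ogn out, were fitted with limma, with side and diet as terms. Differences between the sides come from this fit with diet held constant, and ± marks their standard error over 13 arrays.

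On the Ogn-rich side the Ogn signal was 8.96 in the lowest array, 9.62 in the median and 10.41 in the highest. On the Ogn-poor side it was 7.28, 7.86 and 8.11. The array just inside the rich side was fructose replicate 7 at 8.96, and the array just outside was control replicate 4 at 8.11, so the empty stretch around 8.5 was 0.85 wide. The sides differed by 1.91 in mean signal, a description of the choice itself. Within the control arrays the sides differed by 2.21, and within the fructose arrays by 1.61. The signal was not 1 level per side: control replicate 8 (10.41), fructose replicate 4 (10.36) and control replicate 7 (10.10) stood above the other 4 rich arrays, which lay between 8.96 and 9.62.

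Both diets were found on both sides. Among the control arrays 3 were rich and 4 poor, and among the fructose arrays 4 were rich and 2 poor (Fisher's exact test, 2-sided, p = 0.592). Mean Ogn was 8.66 ± 1.25 (SD, n = 7) in the control group and 9 ± 0.96 (SD, n = 6) in the fructose group. This difference of 0.33 was smaller than the spread within either group (exact permutation test over 1716 splits, 2-sided, p = 0.593).

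A narrow set of genes followed Ogn. With a limma adjusted p of 0.05 (Benjamini-Hochberg) as threshold, 13 probe sets, 0.0832% of all tested, were higher on the Ogn-rich side. As lower, 0 (0%) passed. At an unadjusted p under 0.05 there were 571 higher and 538 lower. Here the threshold only marks how closely a gene kept to the sides. The 13 calls depended on which arrays were in the fit: 0 passed without control replicate 1, 2, 4, 5 or 7 or without fructose replicate 3, 4 or 8, whereas 4 passed without fructose replicate 2, 5 without control replicate 8, 11 (9 of the 13) without control replicate 3, 14 (all 13) without fructose replicate 1 and 27 (all 13) without fructose replicate 7. Without control replicates 1 and 2 together 0 passed, with 653 at an unadjusted p under 0.05. With the Ogn signal itself in place of the sides 86 probe sets (0.55%) passed as higher with Ogn and 1 (0.0064%) as lower, which was Mmp8, the neutrophil collagenase, and 12 of the 13 were among the 86. These 86 held 17 of 31 measured leptomeningeal fibroblast genes, 6 of 13 small leucine-rich proteoglycans, 1 of 25 choroid plexus genes, 0 of 26 endothelial genes and 0 of 18 collagens.

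The overlap of the sides gave a second description, chosen after the data were seen. For 53 probe sets (0.339%) every rich array lay above every poor array, and for 2 (0.0128%) every rich array lay below, namely Phf11 and Ankrd37, whose differences were small (-0.18 and -0.09). Of the 53, 11 were among the 13 calls, 19 belonged to the lists of meningeal genes described below, and 30 belonged to no list. Their median difference was 0.43. The upward count was 78 without control replicates 1 and 2, and from 54 to 95 when single arrays were left out, with 89 without control replicate 4, 89 without control replicate 5 and 95 without fructose replicate 3. Over all probe sets the median difference was -0.00587 and 46.7% were higher on the rich side.

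**Figure D1:**
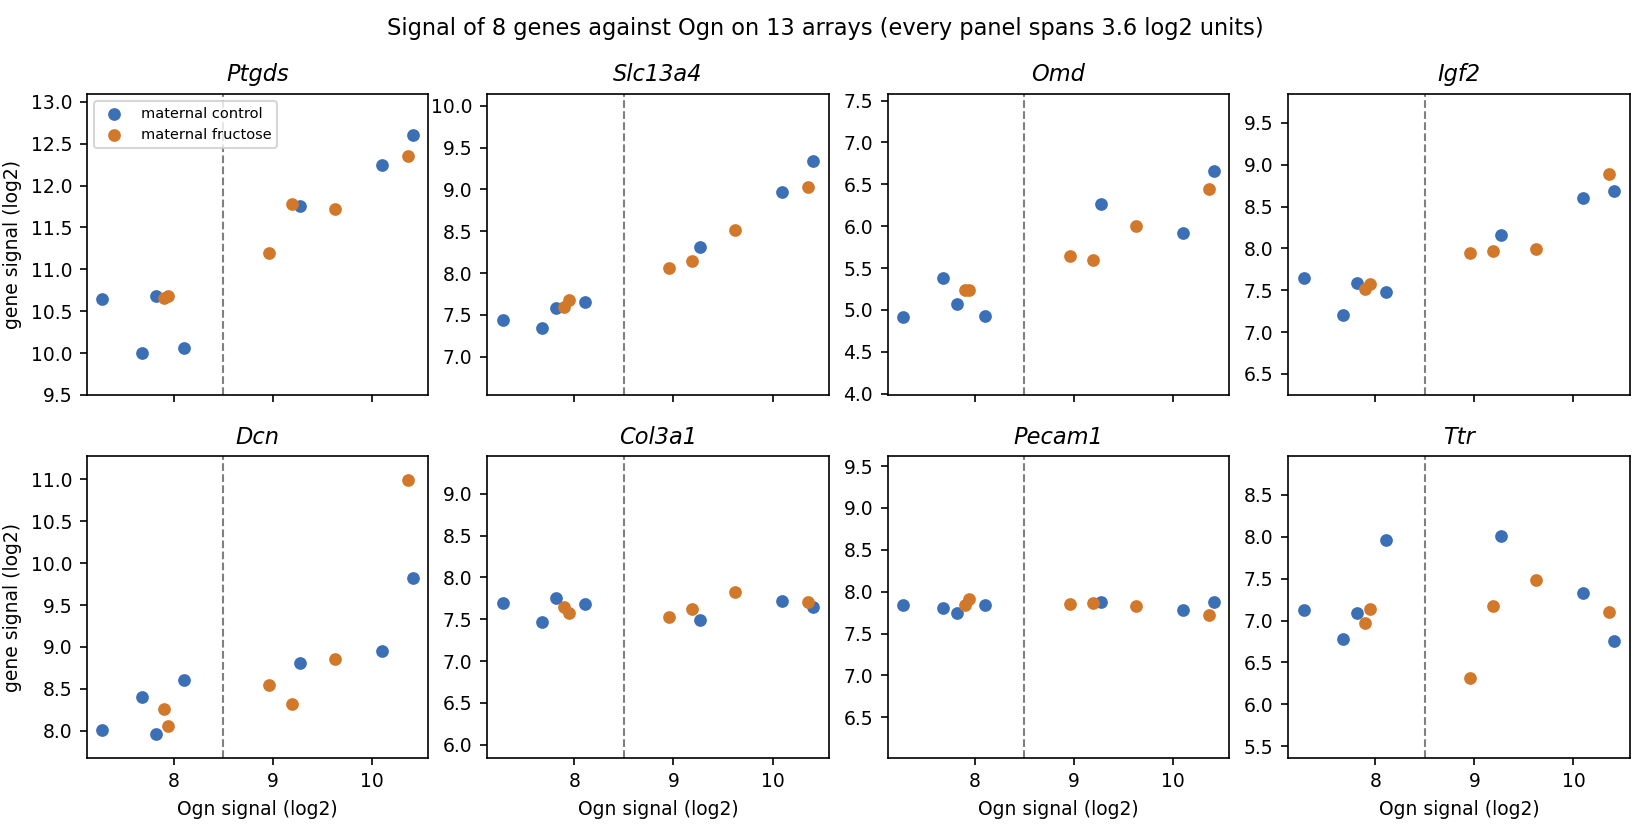
Signal of 8 genes against the Ogn signal on the 13 arrays, both on log2 axes. Each point is 1 array, coloured by maternal diet, and the dashed line is the value of 8.5 that chose the sides. Ptgds, Slc13a4, Omd and Igf2 have no overlap between the sides, Dcn is set high by fructose replicate 4 and control replicate 8, and Col3a1, Pecam1 and Ttr show no shift.

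The family of Ogn itself was split. Small leucine-rich proteoglycans bind collagen fibrils and growth factors in connective tissue. Of 13 measured members besides Ogn, 10 were higher on the rich side and 5 had sides that did not overlap, with a median difference of 0.52. Over all 14505 genes, read from 1 probe set each, the median was -0.00657.

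The largest member was fibromodulin (Fmod), which binds collagen fibrils. Its signal ran from 6.87 through a median of 7.72 to 8.24 on the rich side and from 6.32 through 6.54 to 6.82 on the poor side, a difference of 1.08 ± 0.22. The sides of Fmod were separate, although by a narrow margin. Osteomodulin (Omd), a keratan sulfate proteoglycan known from bone, ran from 5.6 through 6 to 6.66 against 4.91 through 5.15 to 5.38 (0.98 ± 0.16) and was among the 13 calls. Biglycan (Bgn), which binds collagen and members of the transforming growth factor family, ran from 8.51 through 8.84 to 9.21 against 7.87 through 8.11 to 8.26 (0.72 ± 0.12) and was also called. Asporin (Aspn) at 0.63 ± 0.11 and prolargin (Prelp) at 0.52 ± 0.10 were separate as well.

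Decorin (Dcn), the classic fibril-binding member, had one of the largest differences (0.97 ± 0.36) but an uneven one. On the rich side it ran from 8.32 through 8.86 to 10.99, and on the poor side from 7.96 through 8.16 to 8.61, so the sides overlapped. Fructose replicate 4 held the value of 10.99. Lumican (Lum) at 0.59 ± 0.18 also overlapped. The other 6 members lay within 0.1 of no difference: Epyc at 0.06, Kera at 0.01, Chad at 0.00, Tsku at -0.03, Nyx at -0.03 and Optc at -0.10. Several of these are known from cartilage, cornea or retina, as Omd is from bone. Kera, Chad and Optc each gave 1 repeated value on several arrays (5.588, 6.891 and 7.332), so these probe sets may not register a shift. Why these members did not follow Ogn was not tested. The family thus divided into 7 members above 0.5 and 6 near 0.

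Ogn, Omd and Aspn lie next to each other in the RefSeq gene order of the rat, with Ecm2, a further relative, close by. Omd and Aspn followed Ogn, while the other measured genes of this stretch did not: Iars1 differed by -0.05 ± 0.06, Nol8 by -0.01 ± 0.05, Ippk by 0.03 ± 0.10, Bicd2 by 0.04 ± 0.05 and Fgd3 by 0.03 ± 0.06. Ecm2 and Cenpp, which also lie here, had no probe set of their own in the annotation used. Because these neighbouring genes moved together, the 250 bases before the RefSeq start of each are shown, 5′ to 3′ on the gene's own strand, in the GRCr8 build. All lie on the minus strand, Ogn at chr17:15258996-15259245, Omd at chr17:15274871-15275120 and Aspn at chr17:15310470-15310719. Capitals mark any match to the letters TATAAA for the TATA box, the letters CCAAT for the CCAAT box, the letters GGGCGG for the GC box, or the letters TGTTTA for the core bound by forkhead factors, searched on both strands.
Ogn: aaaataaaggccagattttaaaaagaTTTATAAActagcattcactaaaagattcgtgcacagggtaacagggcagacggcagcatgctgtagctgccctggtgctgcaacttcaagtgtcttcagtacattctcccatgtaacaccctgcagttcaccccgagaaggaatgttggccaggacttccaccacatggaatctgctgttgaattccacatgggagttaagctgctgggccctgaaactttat
Omd: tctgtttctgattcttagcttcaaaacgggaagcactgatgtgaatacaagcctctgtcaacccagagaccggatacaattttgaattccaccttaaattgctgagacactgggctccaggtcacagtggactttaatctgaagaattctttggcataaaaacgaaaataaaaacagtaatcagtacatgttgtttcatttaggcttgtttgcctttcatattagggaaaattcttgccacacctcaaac
Aspn: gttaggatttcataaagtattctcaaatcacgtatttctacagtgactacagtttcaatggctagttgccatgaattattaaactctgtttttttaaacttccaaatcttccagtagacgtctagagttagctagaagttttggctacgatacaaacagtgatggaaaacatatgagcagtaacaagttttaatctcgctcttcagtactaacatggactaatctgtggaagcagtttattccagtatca
Ogn held 2 overlapping matches to TATAAA, 1 on each strand, which make up the single run in capitals. Omd and Aspn held none of the 4 motifs in this window. Among 33469 rat promoters of this length in the table, 12.9% held the TATA box, 34% the CCAAT box, 30.5% the GC box and 12.1% the forkhead core. These matches are letters in a window and not sites of binding.

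**Figure D2:**
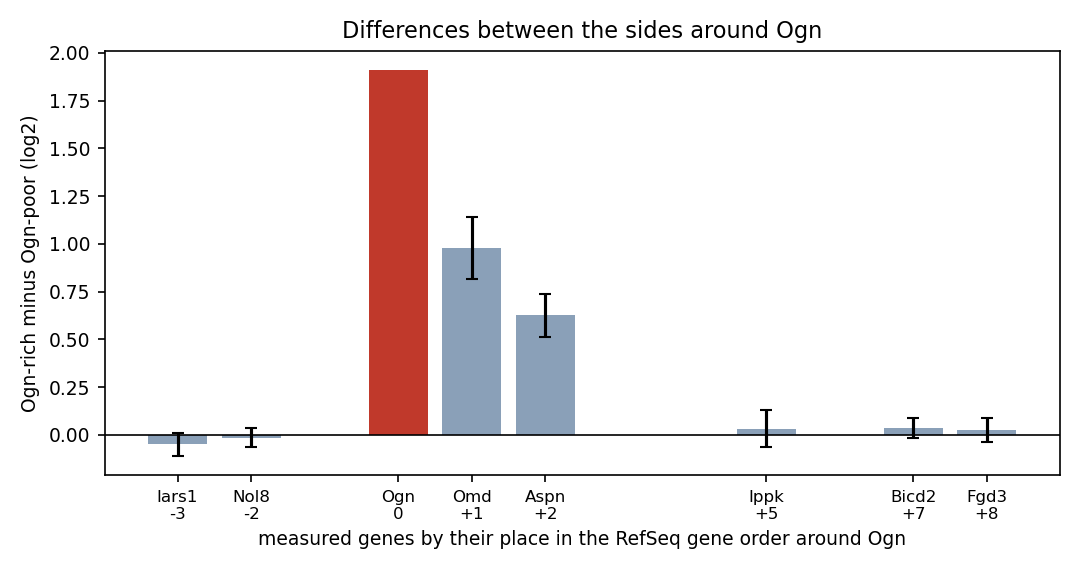
Difference between the sides (Ogn-rich minus Ogn-poor, log2) for measured genes around Ogn, placed by their rank in the RefSeq gene order. Bars start at 0 and error bars are standard errors of the fit. The red bar is the mean difference of Ogn, which chose the sides and has no error bar. Omd and Aspn stand at 0.98 and 0.63, and the other 5 genes lie within 0.05 of 0.

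Genes of leptomeningeal fibroblasts were the largest group to follow Ogn. Of 31 measured members, 29 were higher on the rich side, 10 had sides that did not overlap, 3 were among the 13 calls, and the median difference was 0.36. In 12 of them the 3 highest arrays were those of Ogn, which held for 1.2% of all probe sets. Without control replicates 1 and 2, 30 of 31 were higher, 12 did not overlap and the median was 0.31. The mean of the list ran from 8.03 to 8.56 over the rich arrays and from 7.79 to 7.90 over the poor ones, with no overlap. Many members stand in more than 1 list (25 of 31), so the lists below are not separate evidence.

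Ptgds, the lipocalin-type prostaglandin D synthase that meningeal cells secrete into cerebrospinal fluid, had the largest difference of all probe sets. It ran from 11.20 through 11.78 to 12.60 on the rich side and from 10 through 10.66 to 10.68 on the poor side, a difference of 1.52 ± 0.21 or 2.86-fold. Igf2, a growth factor made by the leptomeninges in the adult brain, ran from 7.94 through 8.16 to 8.89 against 7.21 through 7.55 to 7.65 (0.84 ± 0.16). For both genes every rich array lay above every poor array. Aldh1a2, the enzyme that makes retinoic acid in meningeal fibroblasts, ran from 7.2 through 7.74 to 8.35 against 6.82 through 6.99 to 7.32 (0.80 ± 0.15), with a small overlap. Ceruloplasmin (Cp), a copper-binding ferroxidase, was separate at 0.69 ± 0.16, as were Igfbp2 at 0.38 ± 0.08 and vitronectin (Vtn) at 0.36 ± 0.07.

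Serping1, the inhibitor of complement C1, differed by 0.49 ± 0.10 and Efemp1, a fibulin, by 0.36 ± 0.13, both with overlap. Mgp, an inhibitor of calcification, differed by 0.28 ± 0.07 without overlap. Ccn3, a matricellular protein, differed by 0.20 ± 0.25 and thus by less than its standard error. Dermatopontin (Dpt), a small matrix protein, went the other way at -0.32 ± 0.19. It is taken up again with diet.

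**Figure D3:**
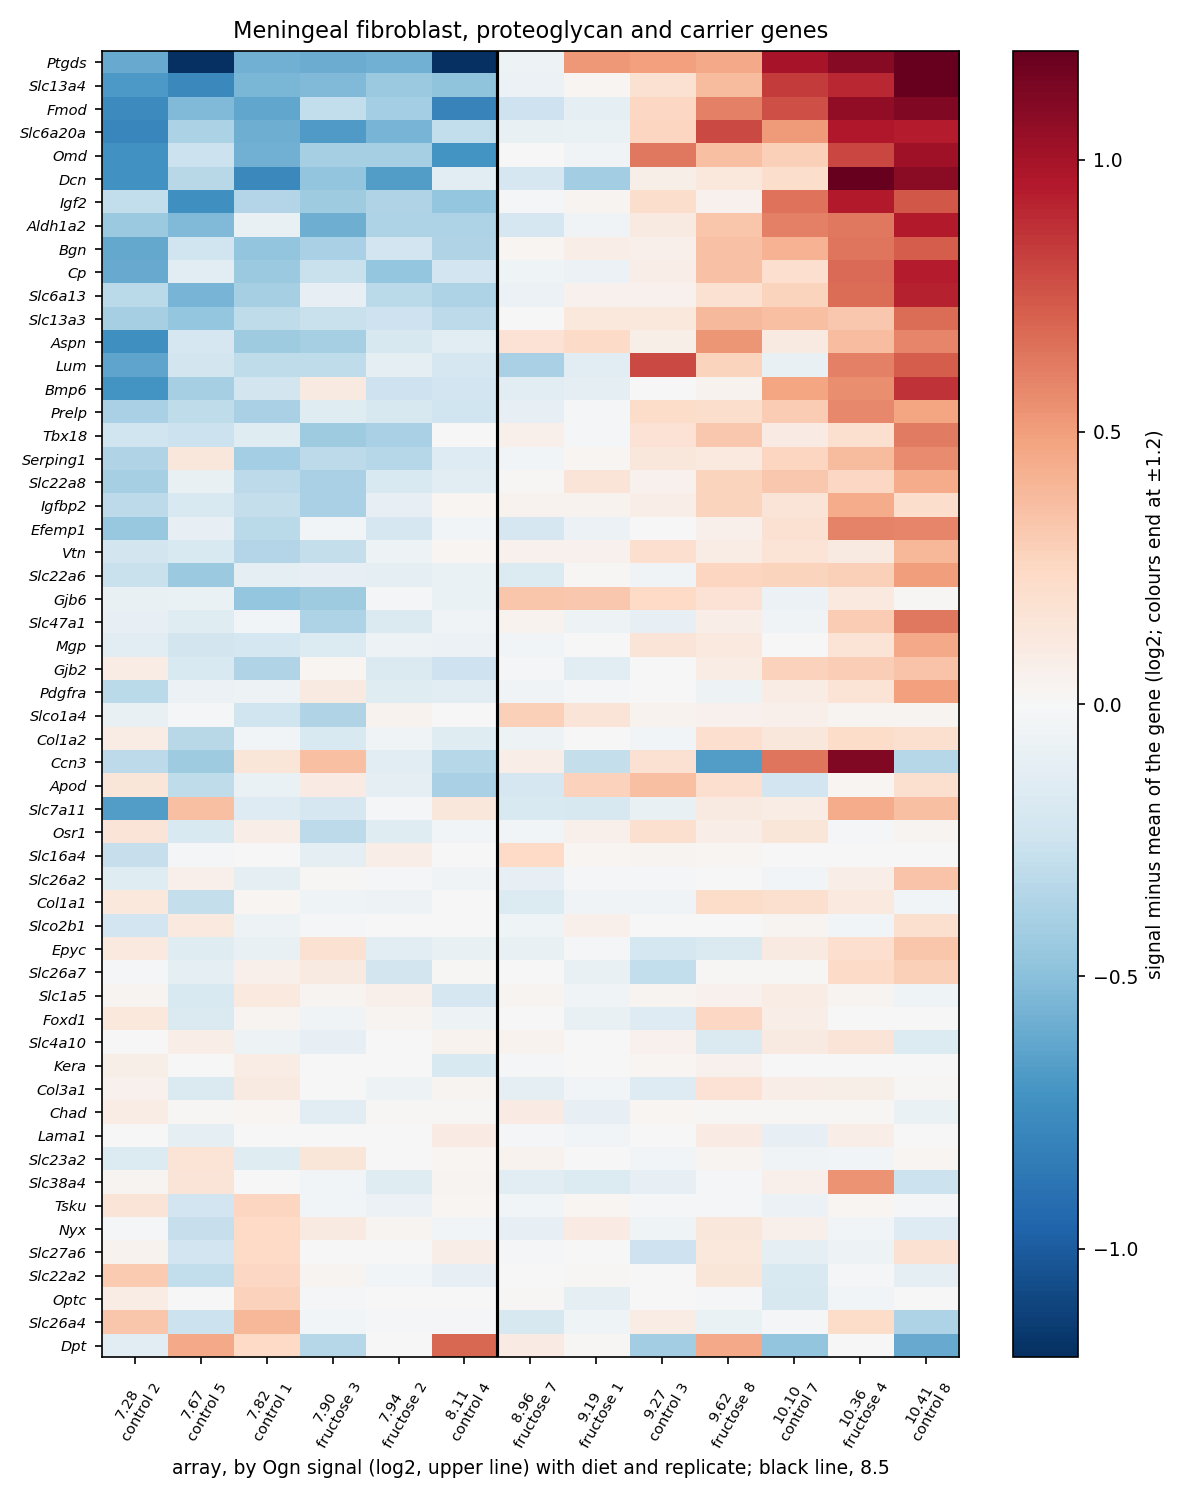
Signal of each gene minus its mean over the 13 arrays (log2, colour scale ending at ±1.2) for the measured members of the leptomeningeal fibroblast, small leucine-rich proteoglycan and meningeal solute carrier lists. Arrays are ordered by Ogn, whose log2 signal stands under each column, and genes by the difference between the sides. The upper rows turn from blue to red at the black line at 8.5, the rows from Col1a1 to Optc show little change, and Dpt in the last row is highest in control replicate 4 on the poor side.

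Solute carriers included several of the strongest followers. The list of meningeal solute carriers had 20 measured members, 15 higher on the rich side, with 4 of the 13 calls and 5 separate. Its median was 0.09. Slc13a4, a sulfate transporter, ran from 8.06 through 8.51 to 9.34 against 7.35 through 7.59 to 7.68 (1.12 ± 0.18). Slc6a20a, a transporter of proline and other imino acids, ran from 8.86 through 9.46 to 9.91 against 8.17 through 8.38 to 8.65 (1.05 ± 0.18). Slc13a3, which carries dicarboxylates, differed by 0.63 ± 0.09, and Slc22a8, an organic anion transporter also known as OAT3, by 0.48 ± 0.08. All 4 were called and separate.

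Slc6a13, a transporter of GABA and taurine in the leptomeninges, was the fifth member without overlap (0.65 ± 0.15). Slc22a6 at 0.35 ± 0.10 and Slc47a1 at 0.30 ± 0.11, carriers of organic anions and cations, overlapped. Other members gave values around 0, among them Slc4a10 at 0.01, Slc23a2 at -0.02, Slc38a4 at -0.02, Slc22a2 at -0.07 and Slc26a4 at -0.12 (0.02 without control replicates 1 and 2). Slc4a10 and Slc23a2 are also known from neurons and from the choroid plexus. Which cells, those of the choroid plexus included, gave the signal of the carriers that followed Ogn was not tested. With the dimmest 30% of probe sets left out the median over the members that remained was 0.28.

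As a list, structural collagens did not follow Ogn in the measured signals. Of 18 fibrillar and associated collagens 4 were higher on the rich side, 0 were separate and the median was -0.07. With control replicates 1 and 2 left out, 6 of 18 were higher, 0 were separate and the median was -0.03. Col1a1, a chain of type I collagen, ran from 8.20 through 8.33 to 8.59 on the rich side and from 8.08 through 8.34 to 8.5 on the poor side, a difference of 0.08 ± 0.08. Col3a1, the chain of type III collagen, ran from 7.49 through 7.66 to 7.82 against 7.47 through 7.66 to 7.76 (0.01 ± 0.06). The ranges nearly coincided in both genes. Col1a2, the partner chain of Col1a1, had the largest value of the list at 0.20 ± 0.08, with overlap. It was 0.26 without control replicates 1 and 2. Col9a1, a cartilage collagen, had the lowest at -0.17 ± 0.07, or -0.10 without them. Basement membrane genes gave a median of -0.02 over 12 members, with 0 separate. Lamb2, a laminin chain of vessels and pia, stood highest at 0.22 ± 0.07. Lama1, the laminin chain of the pial basement membrane, was at 0.00 ± 0.05 and Col4a1 at -0.06 ± 0.06. The same value, 7.389, recurred for Lama1 on several arrays of both sides, so this probe set may not register a shift. Col3a1 and Col4a1 lay below the array median on every array, where small shifts are harder to see.

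Other matrix proteins were mixed. Of 43 matrix glycoproteins and modifying enzymes 31 were higher, 3 were separate and the median was 0.08. Timp1, an inhibitor of metalloproteinases, ran from 7.2 through 7.78 to 8.54 against 6.95 through 7.05 to 7.54 (0.66 ± 0.20) and overlapped. Fibulin 1 (Fbln1) at 0.51 ± 0.12 and Timp3 at 0.43 ± 0.12 were separate, together with Mgp. Fn1, the gene of fibronectin, differed by 0.34 ± 0.10 and Sparc by 0.27 ± 0.10. Mmp2, a gelatinase of fibroblasts, differed by 0.00 ± 0.04, and its poor-side values lay within 7.91 and 7.92.

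Among regulators and signals a few members carried each list. Meningeal transcription factors gave a median of 0.02 over 17 members and 0 were separate, against 0.08 and 2 without control replicates 1 and 2. Tbx18, a T-box factor of pericytes and leptomeningeal fibroblasts, differed by 0.50 ± 0.09, Zic1 by 0.38 ± 0.10 and Tbx15 by 0.33 ± 0.08. Nr2f2 (COUP-TFII) had the largest value, 0.60 ± 0.24, with a difference of 0.97 within the control arrays and of 0.12 within the fructose arrays. With the signal of Slc17a6, taken up below, as a further covariate Nr2f2 differed by 0.34, its lowest value under the alternatives. Foxd1 at 0.02 and Twist1 at -0.01 showed no shift. Zic2, listed with cerebellar genes but also a gene of the leptomeninges, was separate at 0.64 ± 0.12.

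Of 12 retinoid genes only Aldh1a2, Crabp2, a binding protein for retinoic acid (0.50 ± 0.11), Aldh1a1 (0.29 ± 0.10) and Rbp4 (0.21 ± 0.13) exceeded 0.2, and the median was 0.02. Of 11 genes of the insulin-like growth factor system only Igf2, Igfbp5 (0.44 ± 0.21) and Igfbp2 exceeded 0.2, with Igf1 at -0.08 ± 0.21 and H19, the noncoding neighbour of Igf2, at -0.12 ± 0.08. Igfbp5 fell to 0.21 with Slc17a6 as a further covariate. Among 34 secreted signals and antagonists the median was 0.05. Sfrp1, an inhibitor of Wnt signals, was the only separate one, from 6.96 through 7.33 to 8.21 against 6.38 through 6.65 to 6.80 (0.89 ± 0.20). The bone morphogenetic proteins Bmp6 (0.54 ± 0.17), Bmp7 (0.45 ± 0.09), Bmp5 (0.37 ± 0.10) and Bmp4 (0.27 ± 0.06) were all above 0.2 with overlap, whereas the chemokine gene Cxcl12 was at 0.07 ± 0.09.

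Genes of the arachnoid barrier gave a median of 0.12 over 15 members, of which 11 were higher. Beside Ptgds and Crabp2, the adherens junction gene Cdh1 differed by 0.35 ± 0.07, nearly without overlap (6.84 in the lowest rich array and 6.85 in the highest poor one). Claudin 1 (Cldn1) stood at 0.25 ± 0.13 and Cldn11, also a myelin gene, at 0.24 ± 0.13. Dpp4 at 0.04 ± 0.07 and the keratins Krt18 at -0.01 ± 0.06 and Krt19 at -0.02 ± 0.09 showed no shift.

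Vessel genes moved little. Of 26 endothelial genes 25 were higher on the rich side, but the largest difference was 0.20 (Slco1a4, an organic anion transporter of the blood-brain barrier, ± 0.07), 0 were separate and the median was 0.08. Cldn5, the tight junction claudin, ran from 8.38 through 8.61 to 8.66 against 8.39 through 8.52 to 8.66 (0.07 ± 0.06). Pecam1, the adhesion molecule CD31, ran from 7.72 through 7.86 to 7.88 against 7.74 through 7.84 to 7.91 (0.00 ± 0.04). Without control replicates 1 and 2 the count was 21 of 26 and the median 0.04. Tek, the receptor of the angiopoietins, differed by 0.19 ± 0.07, and Kdr, a receptor of VEGF, by 0.17 ± 0.05.

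Mural and smooth muscle genes gave a median of 0.07 over 21 members, 14 of them higher. Vtn, expressed by pericytes as well as by fibroblasts, was the only separate one. Pdgfrb, the receptor that marks pericytes and also fibroblasts, differed by 0.16 ± 0.06, Tagln, a smooth muscle protein, by 0.29 ± 0.10 and Myh11, smooth muscle myosin, by 0.16 ± 0.06. Mylk was at 0.00 ± 0.04.

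**Figure D4:**
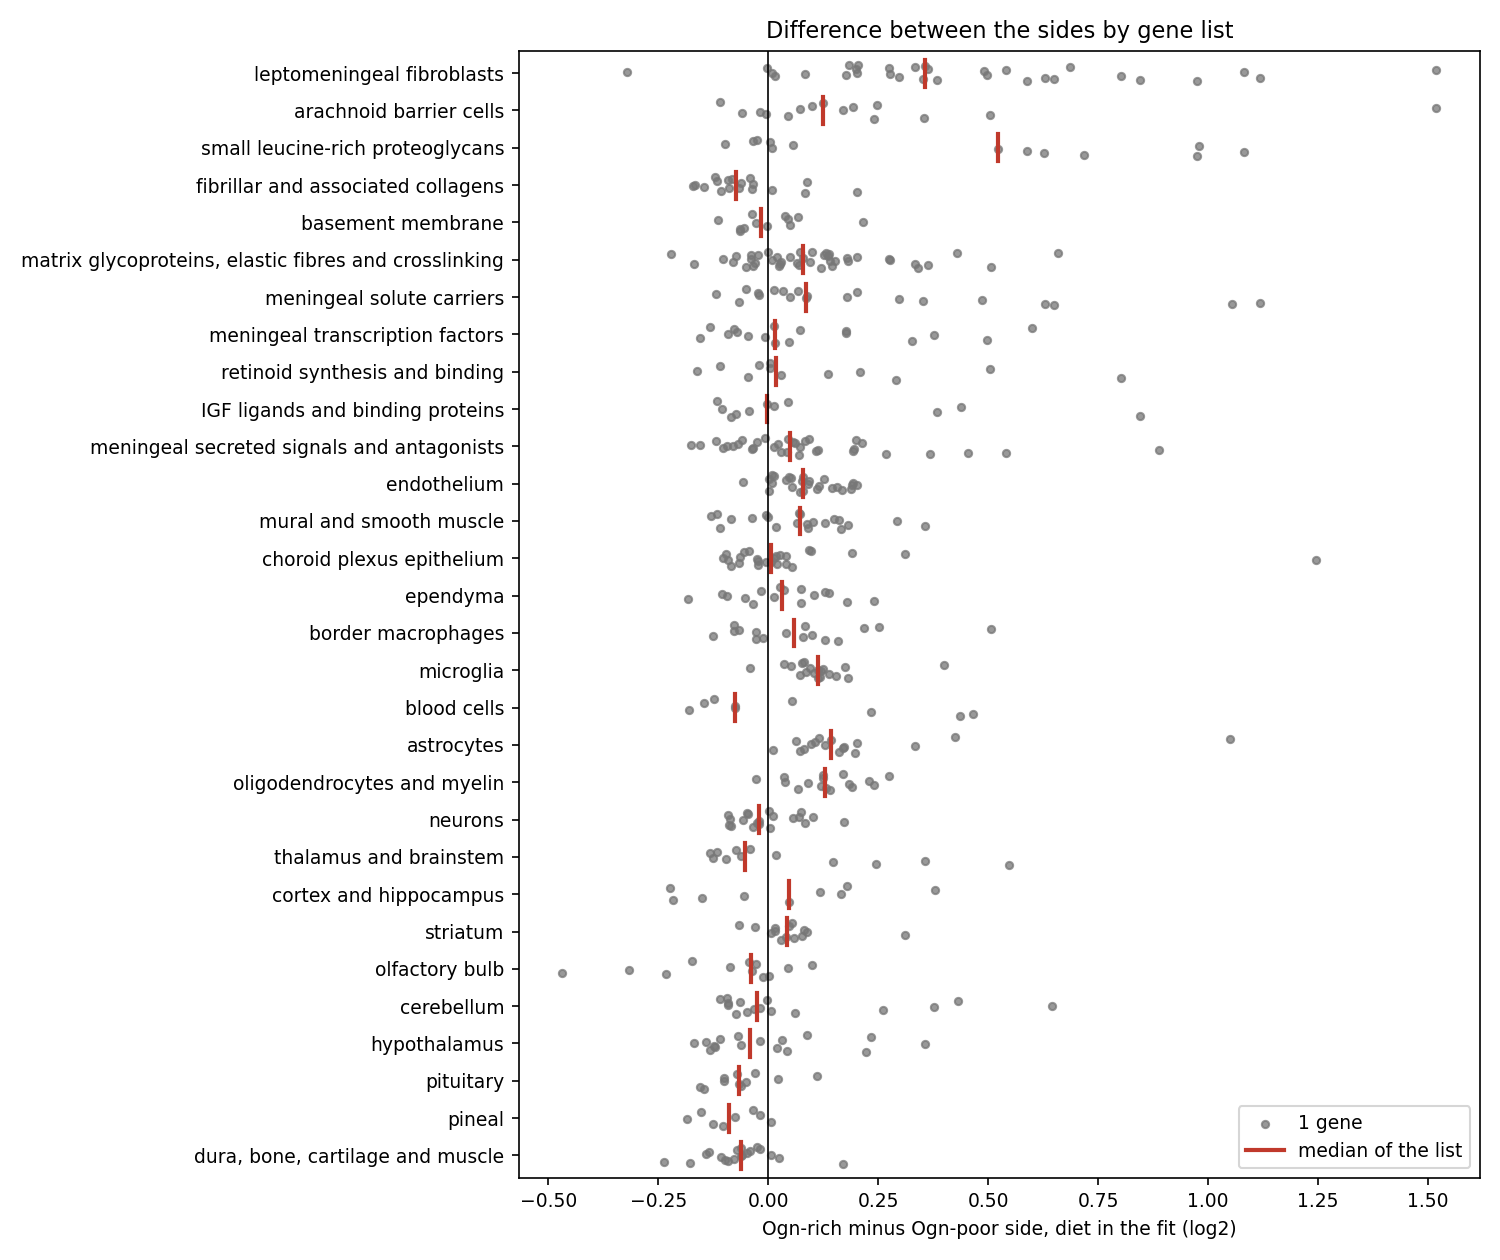
Difference between the sides (Ogn-rich minus Ogn-poor, log2) for each measured member of the 30 gene lists, 1 grey point a gene, with the list median as a red bar. Ogn is left out. The small leucine-rich proteoglycan and leptomeningeal fibroblast lists have medians of 0.52 and 0.36, and endothelium reaches no further than 0.20. The choroid plexus list lies around 0 except for Kcnj13 at 1.24 and Car12 at 0.31.

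In the measured signals of all 13 arrays choroid plexus genes did not follow Ogn, with 1 exception. Of 25 members 13 were higher, 1 was separate and the median was 0.01. The sign of this median turned under 11 of the alternative settings. It was 0.06 without control replicates 1 and 2. In that setting 18 of 25 members were higher, against 43.5% of all probe sets, and 1 was separate. The near-even count thus depended on these arrays. Ttr ran from 6.31 through 7.18 to 8.01 on the rich side and from 6.78 through 7.11 to 7.96 on the poor side, a difference of 0.05 ± 0.23. Its highest values were in control replicate 3 of the rich side (8.01) and control replicate 4 of the poor side (7.96). Folr1, the folate receptor of the plexus, was at -0.02 ± 0.07, Kl (klotho) at -0.09 ± 0.08, Cldn2 at -0.10 ± 0.12 (0.01 without control replicates 1 and 2) and Enpp2 (autotaxin) at 0.01 ± 0.11. Folr1, Kl and Cldn2 lay on every array below 7.11, the mean signal that marked off the 30% dimmest probe sets. Ttr spanned that mark, and Enpp2 was bright (9.99 to 10.62). Signals of dim genes are compressed, so a shift in them could be missed. Some dim genes did shift: Kcnj13, Omd and Aspn had mean signals of 7.015, 5.638 and 6.022, below the same mark.

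The exception was Kcnj13, the inward-rectifier potassium channel Kir7.1, known from the choroid plexus and the retinal pigment epithelium. It ran from 7.02 through 7.48 to 8.14 on the rich side and from 6.17 through 6.42 to 6.55 on the poor side (1.24 ± 0.16), the second largest difference of all. Every rich array was above every poor array, and the 3 highest arrays were those of Ogn. Next in the list came Car12, a carbonic anhydrase, at 0.31 ± 0.15 with overlap, or 0.16 without control replicates 1 and 2. Ependymal genes gave a median of 0.03 over 16 members, with Rarres2 (chemerin) highest at 0.24 ± 0.07 and Foxj1, the regulator of motile cilia, at -0.04 ± 0.04.

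Immune genes were mixed. Cd74, the invariant chain of MHC class II, ran from 8.79 through 9.04 to 9.38 against 8.38 through 8.61 to 8.93 (0.51 ± 0.08) and was called despite overlap. The class II genes RT1-Ba at 0.25 ± 0.10 and RT1-Da at 0.22 ± 0.09 were also higher. Defining markers of border macrophages had smaller differences, with Mrc1 at 0.16 ± 0.05, Cd163 at 0.13 ± 0.05, Lyve1 at -0.03 ± 0.05 and Pf4 at -0.01 ± 0.05, and the list median was 0.06. The order of Cd74 and Mrc1 against the threshold depended on the fit: with the Ogn signal itself as the term Mrc1 was among the 86 and Cd74 was not. C1r, a protease of the complement cascade, was called and separate at 0.52 ± 0.08, as was Ifitm2, an interferon-induced membrane protein, at 0.72 ± 0.11. Microglial genes gave a median of 0.11, with 18 of 19 higher, which was 0.05 and 15 of 19 without control replicates 1 and 2. Olfml3 led them at 0.40 ± 0.14, and Aif1 was separate at only 0.11 ± 0.05.

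Blood genes were split, with 4 of 9 measured members higher on the rich side and 5 lower, the lowest at -0.18. Those higher included the globin genes Hbb (0.44 ± 0.20) and Hbb-b1 (0.46 ± 0.21), with broad overlap, and Alas2, an enzyme of heme synthesis in red cells (0.23 ± 0.12). The list median over 9 members was -0.08, and it turned to 0.44 without the 30% dimmest probe sets. That setting left only Hbb, Hbb-b1 and Alas2 of the list, so 0.44 is the value of Hbb again. The part of blood in the differences between the sides was not tested.

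Vimentin (Vim), an intermediate filament protein of fibroblasts, endothelium and reactive astrocytes, ran from 9.89 through 10.62 to 11.19 against 9.29 through 9.54 to 9.70 (1.05 ± 0.16), separate and called. All 17 genes of the astrocyte list were higher, with a median of 0.14. After Vim came Agt (angiotensinogen) at 0.42 ± 0.16, with overlap and with the 3 highest arrays of Ogn. Gfap differed by 0.20 ± 0.25, and by -0.05 without control replicates 1 and 2, and Slc1a2, the glutamate transporter, by 0.01 ± 0.05. Without control replicates 1 and 2 the count was 14 of 17 and the median 0.05. Gjb6, a connexin that astrocytes and meningeal cells share, differed by 0.33 ± 0.09. Of 16 oligodendrocyte genes 15 were higher with a median of 0.13, and without control replicates 1 and 2 the count was 16 and the median 0.17. The median was 0.22 within the control arrays and -0.02 within the fructose arrays. Mbp, a myelin protein, differed by 0.14 ± 0.16. Neuronal genes gave a median of -0.02 over 20 members, with the nuclear marker Rbfox3 at 0.00 ± 0.07.

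Markers of brain regions were read in the same way. Slc17a6, the glutamate transporter of thalamus and brainstem, ran from 6.39 through 6.70 to 9.15 on the rich side and from 6.07 through 6.49 to 7.83 on the poor side (0.55 ± 0.44), with 1.11 within control and -0.18 within fructose. The difference was 0.07 without control replicate 8 and 0.95 without fructose replicate 3. With Slc17a6 as a further covariate 12 probe sets passed, 10 of them among the 13. Htr2a, a serotonin receptor of the cortex, had the lowest value of all probe sets at -0.56 ± 0.24, with overlap, and Cckbr, a cholecystokinin receptor of the cortex, differed by -0.26 ± 0.06. The lists of pituitary, pineal, and dura, bone, cartilage and muscle had medians of -0.07, -0.09 and -0.06 with 0 separate members, and of -0.02, -0.04 and -0.02 without control replicates 1 and 2. Lists of the thalamus and brainstem (-0.05), cortex and hippocampus (0.05), olfactory bulb (-0.04), cerebellum (-0.03) and hypothalamus (-0.04) had medians near 0. Of 14 striatal genes 12 were higher, with a median of 0.04 that was 0.17 within control and -0.14 within fructose. Whether the stretch of brain taken differed between the sides was not tested.

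Beyond the lists, separate genes included Nupr1, a stress-induced nuclear protein (0.92 ± 0.19), and Lgals1, galectin 1 (0.30 ± 0.05). S100a11, a calcium-binding protein, was called through 1 probe set at 0.59 ± 0.09 whose sides overlapped, while its 3 other probe sets lay at 0.05, 0.05 and -0.04, so the call rests on a probe set that the others of this gene did not share.

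Maternal diet was tested with the side held constant. For fructose minus control 0 of 15632 probe sets (0%) reached an adjusted p of 0.05 in limma. There were 326 at an unadjusted p under 0.05 (193 higher and 133 lower in fructose) and a smallest adjusted p of 0.9997. Cd74, which followed Ogn, was among the genes with the smallest unadjusted p for diet, lower in the fructose group with a difference of -0.29 ± 0.08 at a given side (unadjusted p = 0.00152, adjusted p = 0.9997, limma). Prp2 and Lbh led those higher in fructose. None of them passed.

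Within each diet most leptomeningeal fibroblast genes kept their direction. In this list 26 of 31 members were higher on the rich side in both diets, against 24.5% of all probe sets, with medians of 0.44 within control and 0.30 within fructose, beside 2.21 and 1.61 for Ogn itself. In other lists 12 of 20 solute carriers, 8 of 13 small leucine-rich proteoglycans, 13 of 34 secreted signals, 7 of 17 transcription factors and 2 of 18 collagens were higher in both diets. Ptgds differed by 1.85 within control and 1.09 within fructose, Kcnj13 by 1.49 and 0.92, Slc13a4 by 1.37 and 0.80, and Omd by 1.21 and 0.68. Dcn differed by 0.95 and 1.01 and Aspn by 0.63 and 0.62. With 2 fructose arrays on the poor side the values within fructose are the less certain.

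Whether the difference between the sides depended on diet was tested as an interaction, and in limma none of the 15632 (0, or 0%) reached an adjusted p of 0.05. There were 740 at an unadjusted p under 0.05, and the smallest adjusted p was 0.8957. Dpt was among those with the smallest unadjusted p: the sides differed by -0.81 within control and by 0.31 within fructose (unadjusted p = 0.000563, adjusted p = 0.8957, limma). Clec4a2, a lectin receptor of myeloid cells, gave -0.37 and 0.13, and Gstm6, a glutathione transferase, 0.79 and -0.37. At these adjusted values no gene was shown to depend on diet.

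**Figure D5:**
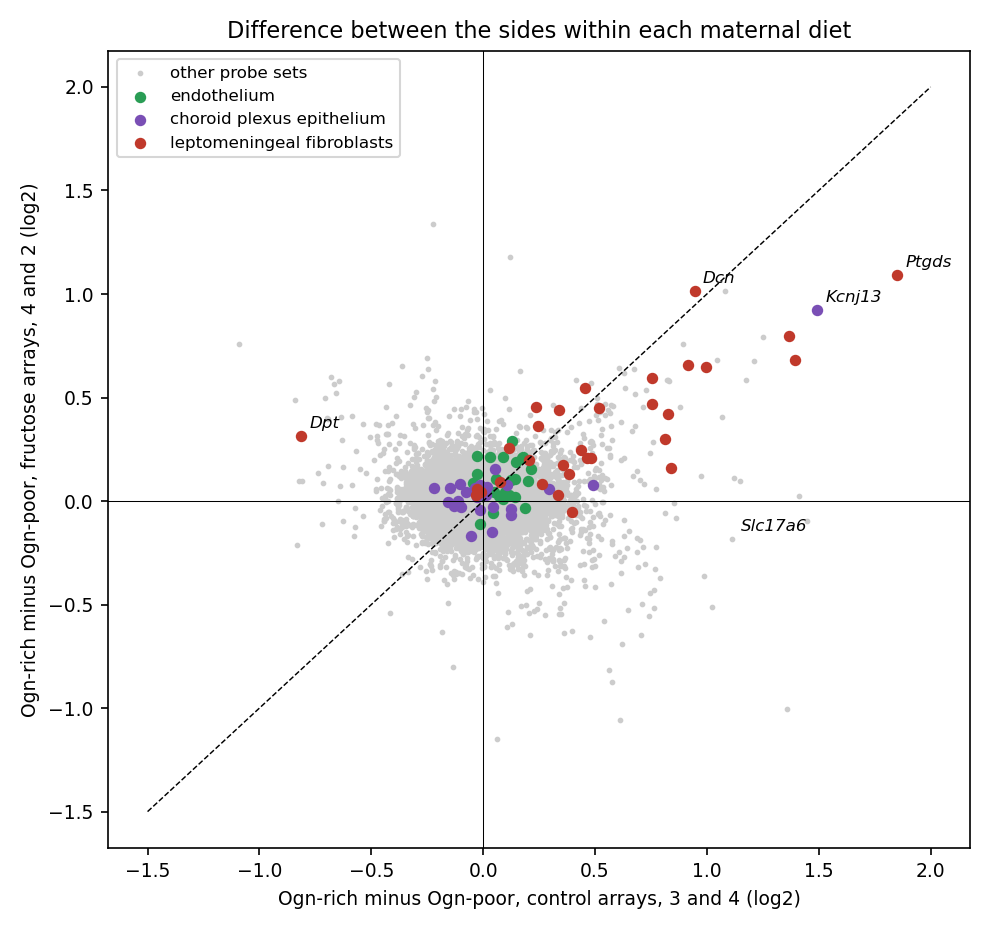
Difference between the sides (Ogn-rich minus Ogn-poor, log2) within the control arrays (3 rich, 4 poor) on the horizontal axis and within the fructose arrays (4 rich, 2 poor) on the vertical axis, 1 point a probe set, with members of 3 lists in colour. The dashed line marks equal differences. Ptgds and Kcnj13 lie in the upper right below the line and Dcn near it. Most endothelial and choroid plexus genes cluster near 0, with Kcnj13 far from them, and Dpt lies in the upper left.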

How the data were processed

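The deposited table held log2 signals of 13 Affymetrix rat gene arrays, made with RMA in R 3.0.1 per the submitters' processing notes. RMA corrects background, equalises the arrays' distributions and summarises probes, so signals of dim genes are compressed. The table gave no detection values, and precision is limited by the number of arrays. Probe sets were named from the platform annotation: of 29214, 15310 had 1 gene, 323 several and 13581 none, and 15279 were matched to RefSeq by Entrez identifier. The RefSeq table (GRCr8) also gave gene order and promoters.

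The sides were set by Ogn and entered limma 3.58.1 (R 4.3.3; lmFit, eBayes) with maternal diet as covariate, over 15632 probe sets without a filter, adjusted by Benjamini-Hochberg. Diet was tested with side as covariate, as an interaction, and by Fisher's exact and exact permutation tests. Scripts were tested on simulated data. The labels name no separate litters or animals, so p-values measure the spread between samples.

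Members, the 30 lists and the tests were chosen with earlier results of these data known. Lists were read from the probe set with the highest mean of each gene. Named were Ogn, the largest side differences past the threshold (filled by smallest p), every small leucine-rich proteoglycan, the largest and smallest differences of the other lists, some fixed markers, and the smallest p for diet and interaction, not each of which is printed. Iars1, Nol8, Ippk, Bicd2, Fgd3, Nupr1, Htr2a, Phf11, Ankrd37, Mmp8 and further list members were named after their values were seen. Alternatives covered normalization, filters, covariates, array weights, the replicate block and left-out arrays.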

Additional observations from a re-analysis of the deposited data

Results flagged for a closer look

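For 132 genes named in the text the 7 rich and the 6 poor arrays were each searched for a sample far from the others by Dixon's criterion, which chance meets in about 1 group in 20. Of 264 groups 21 met it. On the Ogn-rich side these were the following log2 signals. Vtn was highest in control replicate 8 at 8.52, with the next array at 8.31. Mgp was highest in control replicate 8 at 8.27, with the next array at 7.98. Slc38a4 was highest in fructose replicate 4 at 7.52, with the next array at 7.04. Col4a1 was highest in fructose replicate 8 at 7.84, with the next array at 7.69. Igf1 was highest in control replicate 8 at 8.85, with the next array at 8.09. Dpp4 was highest in fructose replicate 8 at 6.87, with the next array at 6.69. Cldn5 was lowest in fructose replicate 4 at 8.38, with the next array at 8.59. Tagln was highest in control replicate 8 at 8.34, with the next array at 7.95. Folr1 was highest in fructose replicate 8 at 6.78, with the next array at 6.58. Pf4 was lowest in control replicate 3 at 7.38, with the next array at 7.46.

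On the Ogn-poor side they were these. Ttr was highest in control replicate 4 at 7.96, with the next array at 7.14. Kera was lowest in control replicate 4 at 5.41, with the next array at 5.59. Chad was lowest in fructose replicate 3 at 6.74, with the next array at 6.89. Mmp2 was highest in control replicate 4 at 7.92, with the next array at 7.91. Igf1 was highest in fructose replicate 3 at 9.20, with the next array at 8.19. Krt19 was lowest in control replicate 5 at 6.61, with the next array at 6.87. RT1-Ba was lowest in control replicate 1 at 6.68, with the next array at 6.97. Lyve1 was lowest in fructose replicate 2 at 7.47, with the next array at 7.58. Pf4 was lowest in control replicate 5 at 7.25, with the next array at 7.46. Agt was lowest in control replicate 1 at 9.13, with the next array at 9.50. Slc17a6 was highest in fructose replicate 3 at 7.83, with the next array at 6.71. The criterion was met in no group of Ogn, Ptgds, Kcnj13, Slc13a4 or Omd. Dcn, whose highest value was 10.99 in fructose replicate 4, did not meet it either, since control replicate 8 was high as well.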

How the results depend on the processing

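The number of probe sets higher on the Ogn-rich side, 13 as reported, was the least stable value. It was 0 with the replicate block, over all probe sets and with Ttr as covariate, 7 with an intensity trend and robust prior, 86 with the Ogn signal as a continuous term, 0 without the 2 arrays of narrowest range, 5 without the array nearest to 8.5 on each side, and 0 to 27 when single arrays were left out. From 9 to 16 passed with diet left out, other normalizations, centred arrays, array weights, Slc17a6 as covariate or without the 30% dimmest probe sets. The cause of these shifts was not tested. The count lower on the rich side was 0, and 1 with the Ogn signal as a continuous term.

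The count of probe sets whose sides did not overlap, tried under alternatives chosen after the data were seen, was 53 upwards, 111 without the array nearest to 8.5 on each side, and 54 to 95 when single arrays were left out. Leaving arrays out makes separation easier by construction. Diet and interaction gave 0 in every setting run, and Ogn between the diets gave p = 0.593 by exact permutation against p = 0.592 by Fisher's exact test.

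No pairing by replicate number was seen, and the labels do not say what the numbers mean. Deviations from the group means correlated between -0.335 and 0.187 across the 6 shared numbers. No control array correlated best with the fructose array of its own number. So few values cannot settle whether the numbers stand for pairs. With the replicate block Rbp4 differed by -0.05, Gjb6 by 0.52, Twist1 by -0.26, Slc4a10 by 0.12 and Cckbr by -0.37. List medians kept their sign under every alternative for leptomeningeal fibroblasts (0.265 to 0.418), small leucine-rich proteoglycans (0.4 to 0.576), solute carriers (0.0437 to 0.277, the highest without the 30% dimmest probe sets), endothelium (0.0425 to 0.111) and mural cells (0.0521 to 0.0969), and the choroid plexus median lay between -0.0359 and 0.0613. S100a11 over all its probe sets differed by 0.17. Dim genes such as Omd and Lum lie where the array compresses differences.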
